A study of Mus musculus with 24 samples.

Results

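The cathepsins described here are 10 genes for proteases of the lysosome: Ctss, Ctsl, Ctsk, Ctsb and Ctsf, Ctsc, Ctsh and Ctsz, and Ctsd and Ctse. They were taken by gene symbol, with earlier results of these data known. All 22 probe sets that the array annotation assigns to 1 of these symbols alone were used, out of 34945 probe sets with 1 symbol. The main value of a gene was its probe set with the highest mean over 24 arrays, which gave 10 of 18193 genes, and all 10 were measured. Their levels were followed across 6 groups of mice: TgCRND8 and Control at 70, 80 and 150 days of age.

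TgCRND8 mice carry the APPSwe/Ind transgene, a human amyloid precursor protein with the Swedish and Indiana mutations, and form amyloid plaques in the brain as they age. The transgene of this line is known to be driven by a prion gene promoter. Control mice were littermates without it, and strain and sex are not given in the labels used here. RNA came from forebrain, with olfactory bulb, cerebellum and brainstem cut away, and each group held 4 mice with 1 array per mouse.

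Cathepsins are made as inactive precursors, carried to the lysosome and activated there by cleavage at acid pH. Most are cysteine proteases, and cathepsins D and E are aspartic proteases. In brain they degrade proteins in neurons, and microglia and other phagocytes use them to digest material they engulf and to process antigens.

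The promoter of a gene is the DNA around its transcription start. RefSeq promoter windows (build GRCm38.p6, 250 bases before to 50 after the start that the table uses) were at hand for 7 of the 10 genes, and not for Ctsb, Ctse and Ctsh. Of these windows, 5 are shown. They set genes that were higher in TgCRND8 than in Control at day 150 (Ctss, Ctsc and Ctsd) beside genes that did not pass (Ctsk and Ctsl). Ctsk is the neighbour of Ctss on chromosome 3, with 1 gene between them. Capitals mark 3 short motifs searched on both strands. The first is CACGTG, the E-box read by TFEB, the transcription factor known for driving lysosome genes, which is the same on both strands. The second is GAGGAA, the core bound by the myeloid factor PU.1, and the third is the core of interferon response elements, GAAA and GAAA with any 2 bases between them. No match of one motif overlapped a match of another. Ctss lies at chr3:95526536-95526835 on the plus strand, Ctsk at chr3:95498960-95499259 on the plus strand and Ctsc at chr7:88277835-88278134 on the plus strand. Ctsd lies at chr7:142387778-142388077 on the minus strand and Ctsl at chr13:64370471-64370770 on the minus strand. The Ctsl gene is annotated at chr13:64361890-64370772, so its window lies inside the gene. Bases before that annotated gene were not searched.
Ctss: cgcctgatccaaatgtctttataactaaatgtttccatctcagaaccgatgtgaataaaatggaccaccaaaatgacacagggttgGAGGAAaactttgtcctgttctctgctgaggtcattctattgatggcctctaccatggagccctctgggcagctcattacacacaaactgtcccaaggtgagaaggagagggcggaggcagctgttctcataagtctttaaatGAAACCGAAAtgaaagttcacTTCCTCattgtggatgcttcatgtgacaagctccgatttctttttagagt
Ctsk: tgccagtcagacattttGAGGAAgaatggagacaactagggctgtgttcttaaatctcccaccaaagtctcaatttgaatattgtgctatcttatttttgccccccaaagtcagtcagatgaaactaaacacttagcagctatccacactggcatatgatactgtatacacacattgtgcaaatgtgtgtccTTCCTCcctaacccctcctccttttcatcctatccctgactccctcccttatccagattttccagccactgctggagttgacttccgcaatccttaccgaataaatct
Ctsc: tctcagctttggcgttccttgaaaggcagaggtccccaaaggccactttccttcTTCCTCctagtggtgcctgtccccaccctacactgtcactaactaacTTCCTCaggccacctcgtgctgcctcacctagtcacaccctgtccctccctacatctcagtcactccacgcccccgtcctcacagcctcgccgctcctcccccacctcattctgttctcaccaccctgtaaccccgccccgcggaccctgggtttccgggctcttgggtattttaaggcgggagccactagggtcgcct
Ctsd: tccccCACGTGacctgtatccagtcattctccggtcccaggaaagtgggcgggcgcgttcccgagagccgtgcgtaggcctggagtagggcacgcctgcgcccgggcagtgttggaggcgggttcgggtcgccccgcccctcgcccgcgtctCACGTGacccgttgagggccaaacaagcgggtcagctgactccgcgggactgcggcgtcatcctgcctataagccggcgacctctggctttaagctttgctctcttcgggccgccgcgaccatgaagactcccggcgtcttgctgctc
Ctsl: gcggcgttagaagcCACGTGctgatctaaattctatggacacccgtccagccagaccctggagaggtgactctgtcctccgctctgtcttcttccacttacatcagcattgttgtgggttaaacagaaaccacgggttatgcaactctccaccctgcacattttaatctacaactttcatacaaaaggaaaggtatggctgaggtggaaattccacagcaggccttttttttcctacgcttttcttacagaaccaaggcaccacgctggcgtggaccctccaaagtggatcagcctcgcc

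CACGTG was found 2 times in the Ctsd window and 1 time each in those of Ctsf and Ctsl, while 7.15% of 32851 mouse promoter windows held it at least 1 time and 0.594% held 2 or more. GAGGAA was found 2 times each in the windows of Ctss, Ctsc and Ctsk, while 28.3% of all windows held it at least 1 time and 4.82% held 2 or more. The interferon response core was found in the Ctss window alone among the 7, as GAAACCGAAA, and in 3.44% of all windows. The Ctsz window held none of the 3. GGGCGG, a GC box, was found 3 times in the Ctsz window, 2 times in that of Ctsd and 1 time each in those of Ctsc, Ctsf and Ctss, while 35.7% of all windows held it at least 1 time and 19.5% held 2 or more. GAGGAA thus occurred in Ctss and Ctsc, which were higher in TgCRND8 than in Control at day 150, and in Ctsk, which did not pass. CACGTG occurred in Ctsd, which was also higher in TgCRND8, and in Ctsl and Ctsf, which did not pass. A match describes the letters only.

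Values are log2 signals as deposited, so a difference of 1 is a doubling. Array medians lay between 4.28 and 4.38, and lower quartiles between 3.15 and 3.32. Correlations of arrays within groups (median 0.9957) were close to those across groups (median 0.9954), with a lowest value of 0.9887. The 8 neuron markers, Snap25 and Camk2a among them, averaged 10.4 to 10.6 in the TgCRND8 arrays and 10.4 to 10.5 in the Control arrays of day 150. Xist, the X-inactivation RNA of females, was low in 5 arrays of days 70 and 80 and high in the other 19, among them all 8 arrays of day 150. The 5 were 1 Control array of day 70, 2 TgCRND8 arrays of day 80 and 2 Control arrays of day 80. Comparisons of day 80 with other ages, and those with Control of day 70, thus also differ in Xist. A probe set's signal depends on its own sequence, so levels were not compared between genes. In whole forebrain, a change in the number of cells of a type and a change in RNA per cell cannot be told apart.

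At day 150, Ctss, Ctsc, Ctsz, Ctsd and Ctse were higher in TgCRND8 forebrain, by 0.56, 0.71, 0.48, 0.36 and 0.52 on the log2 scale, or 1.28-fold to 1.64-fold. Ctsh was 0.46 higher without passing the test, and Ctsb, Ctsl, Ctsf and Ctsk differed by 0.12, 0.05, -0.02 and -0.12. A gene passed at an adjusted p under 0.05 by limma, with Benjamini-Hochberg adjustment over all 18193 genes. By that rule 5 of the 10 cathepsins rose and 0 fell, against 0.121% of all genes that rose (22 genes). Between genotypes, a gene that rose was higher in TgCRND8 than in Control of the same age. The 10 were chosen with earlier results of these data known, so their contrast with all genes is a description. The median difference was 0.41 over the 10 cathepsins and 0.00044 over all genes, whose 5th and 95th percentiles were -0.17 and 0.16. At an unadjusted p under 0.05 there were 6 of 10 cathepsins, against 4.38% of all genes. For 6 of the 10 the lowest TgCRND8 array stood above the highest Control array, against 1.53% of all genes. For 5 of the 10, those that rose, the 4 TgCRND8 arrays of day 150 lay above all 20 other arrays of the study, against 0.115% of all genes (21 genes). The count depended on single arrays: 5, 4, 3, 3, 3, 2, 2 and 1 of the cathepsins passed in the 8 fits that each left out 1 array of day 150. The count of 1, which was Ctss, came without Control replicate 2. It was 2 (Ctss and Ctsc) without TgCRND8 replicate 1 or replicate 4, and 3 (Ctss, Ctsc and Ctsz) without TgCRND8 replicate 2, Control replicate 1 or Control replicate 4.

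**Figure D1:**
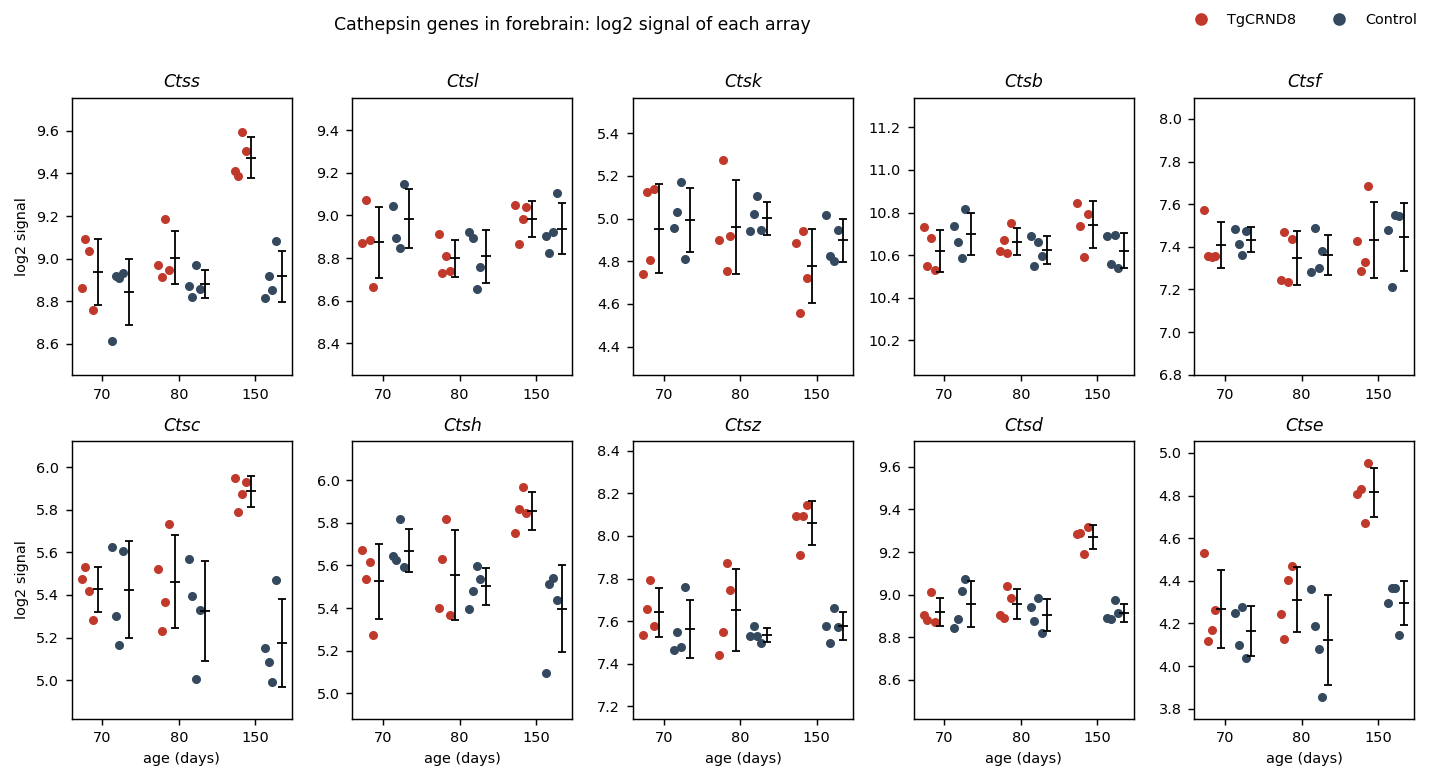
Log2 signal of the main probe set of each cathepsin gene on all 24 arrays by age in days (ages evenly spaced), with TgCRND8 in red left of Control in dark blue. Points are arrays, bars are the group mean with SD (n = 4), and each panel has its own range of levels. The TgCRND8 points of day 150 stand above all 20 other arrays for Ctss, Ctsc, Ctsz, Ctsd and Ctse, and overlap them for Ctsb, Ctsl, Ctsf, Ctsk and Ctsh.

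Among the endopeptidases, which cut inside proteins, Ctss encodes cathepsin S, a protease of microglia and other antigen-presenting cells that trims the class II invariant chain and stays active at neutral pH. Its signal at day 150 was 9.41, 9.39, 9.59 and 9.50 in the TgCRND8 mice, against 8.81, 8.92, 8.85 and 9.08 in the Control mice. All 4 TgCRND8 values lay above all 4 Control values. The means were 9.47 ± 0.094 and 8.92 ± 0.12 (SD, n = 4 each), a difference of 0.56 (SE 0.089, 95% confidence interval 0.37 to 0.74, 1.47-fold, adjusted p = 0.0026 by limma). Ctss had the 9th smallest p of all genes and passed in all 10 other processing settings (adjusted p 0.00076 to 0.014 by limma) and in all 8 fits with 1 array of day 150 left out.

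In younger mice Ctss read 8.86, 9.09, 9.04 and 8.76 in TgCRND8 at day 70, against 8.61, 8.92, 8.91 and 8.93 in Control. At day 80 it read 8.97, 8.91, 9.19 and 8.95 in TgCRND8, against 8.87, 8.82, 8.97 and 8.86 in Control. The groups overlapped at both ages. Ordered by mean, TgCRND8 of day 150 came first, without overlap with the next group. TgCRND8 of day 80 (9.0), TgCRND8 of day 70 (8.94), Control of day 150 (8.92), Control of day 80 (8.88) and Control of day 70 (8.84) followed, each overlapping its neighbour, within a span of 0.16.

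Ctsl encodes cathepsin L, a lysosomal endopeptidase of many tissues. It read 9.05, 8.87, 8.98 and 9.04 in TgCRND8 at day 150, against 8.90, 8.82, 8.92 and 9.10 in Control. The groups overlapped, and the difference was 0.05 with a 95% confidence interval of -0.14 to 0.23. Ctsk encodes cathepsin K, the collagen-degrading protease of osteoclasts. At day 150 it read 4.89, 4.56, 4.94 and 4.72 in TgCRND8, against 5.02, 4.82, 4.80 and 4.95 in Control, which overlapped, with a difference of -0.12 (-0.35 to 0.11).

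Ctsb encodes cathepsin B, which cuts inside proteins and also removes dipeptides from their carboxyl end. It read 10.85, 10.74, 10.59 and 10.79 in TgCRND8 at day 150, against 10.69, 10.56, 10.69 and 10.54 in Control, with overlap. The difference was 0.12 (95% confidence interval -0.03 to 0.27). Ctsf, for cathepsin F, another endopeptidase that can process the invariant chain, read 7.43, 7.29, 7.33 and 7.69 in TgCRND8 at day 150, against 7.48, 7.21, 7.55 and 7.55 in Control. Its difference was -0.02 (-0.20 to 0.17). Adjusted p was 0.999 by limma for each of Ctsl, Ctsk, Ctsb and Ctsf, whose intervals all held 0 and had upper ends between 0.11 and 0.27.

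The exopeptidases cut from the ends of proteins. Ctsc encodes cathepsin C, or dipeptidyl peptidase I, which removes dipeptides from the amino end and activates the serine proteases of immune cell granules. At day 150 it read 5.95, 5.79, 5.87 and 5.93 in TgCRND8, against 5.15, 5.09, 4.99 and 5.47 in Control. All TgCRND8 values were above all Control values, and Control replicate 4 was the nearest. The difference of 0.71 (SE 0.12, 95% confidence interval 0.46 to 0.97, 1.64-fold, adjusted p = 0.0068 by limma) was larger than the replicate spread, with SDs of 0.072 in TgCRND8 and 0.21 in Control (n = 4 each). TgCRND8 means were 5.43, 5.46 and 5.89 at days 70, 80 and 150, and Control means were 5.43, 5.32 and 5.17. Ctsc failed in 1 of the 8 fits that left out an array, that without Control replicate 2 (adjusted p = 0.0504 by limma).

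Ctsz encodes cathepsin Z, also called X, which removes single residues from the carboxyl end. In TgCRND8 forebrain it read 8.09, 7.91, 8.09 and 8.14 at day 150, against 7.58, 7.50, 7.66 and 7.57 in Control, without overlap. The difference was 0.48 (SE 0.087, 95% confidence interval 0.30 to 0.66, 1.40-fold, adjusted p = 0.011 by limma). Ctsz passed in all 10 other processing settings and in 5 of the 8 fits that left out an array. It missed the threshold without TgCRND8 replicate 1 (adjusted p = 0.0517 by limma), TgCRND8 replicate 4 (0.0795) and Control replicate 2 (0.0782).

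Ctsh encodes cathepsin H, an aminopeptidase. It read 5.75, 5.86, 5.97 and 5.85 in TgCRND8 at day 150, against 5.10, 5.51, 5.54 and 5.44 in Control. The groups did not overlap, and Control replicate 1 was the lowest array. The difference was 0.46 (SE 0.11, 95% confidence interval 0.24 to 0.68, 1.37-fold) and did not pass (adjusted p = 0.122 by limma). With the replicate number as a block it passed, with an adjusted p of 0.016 by limma. It also passed with array weights (0.036) and as the mean of its probe sets (0.046). In the 7 other processing settings and in all 8 fits that left out an array it did not pass (adjusted p up to 0.63 by limma without an array). Control of day 70 (5.67) was the next highest group and overlapped TgCRND8 of day 150 (5.86).

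The aspartic proteases were Ctsd and Ctse. Ctsd encodes cathepsin D, the main aspartic protease of the lysosome, whose loss causes a neuronal storage disease. At day 150 it read 9.29, 9.29, 9.19 and 9.32 in TgCRND8, against 8.89, 8.88, 8.98 and 8.91 in Control. No values overlapped, and the other 5 group means spanned 0.050. The difference was 0.36 (SE 0.067, 95% confidence interval 0.22 to 0.49, 1.28-fold, adjusted p = 0.016 by limma). Ctsd passed in only 2 of the 8 fits that left out an array, with adjusted p between 0.060 and 0.097 by limma in the 6 others. It also failed with the arrays of day 150 alone in the fit (adjusted p = 0.086 by limma). In these fits its difference stayed between 0.34 and 0.36.

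Ctse encodes cathepsin E, an aspartic protease of endosomes in immune and epithelial cells. In TgCRND8 at day 150 it read 4.81, 4.83, 4.67 and 4.95, against 4.30, 4.37, 4.37 and 4.15 in Control, close to the median of all probe sets of an array. The groups did not overlap. The difference was 0.52 (SE 0.10, 95% confidence interval 0.31 to 0.73, 1.43-fold, adjusted p = 0.033 by limma). Ctse passed in 1 of the 8 fits that left out an array, that without TgCRND8 replicate 3, with adjusted p up to 0.20 by limma in the others.

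**Figure D2:**
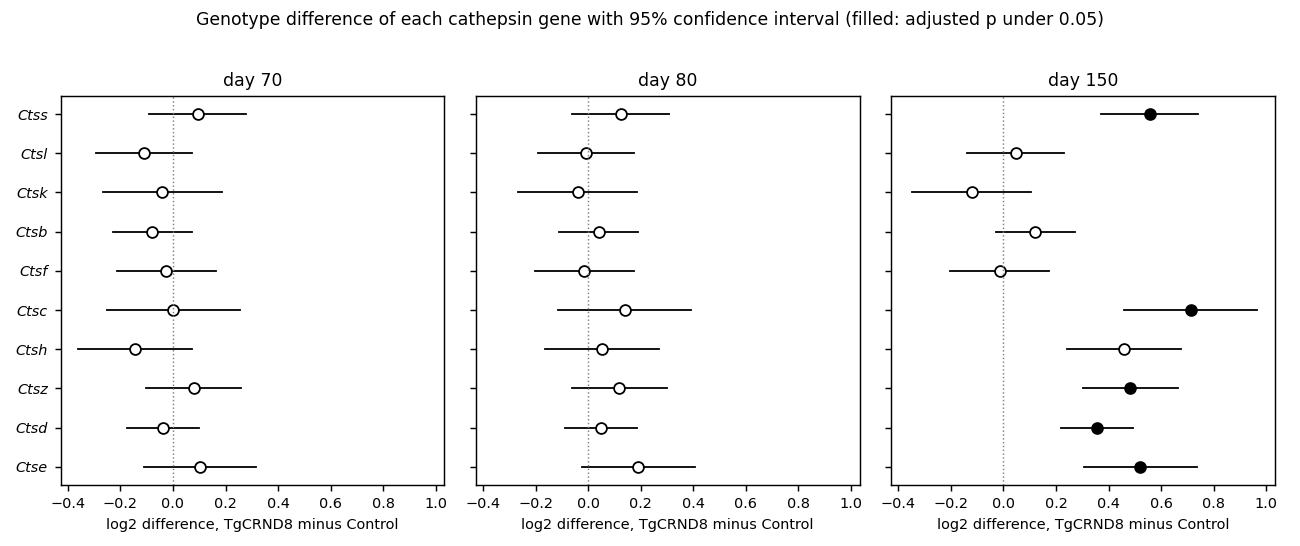
Log2 difference of TgCRND8 minus Control for each cathepsin gene at days 70, 80 and 150, with 95% confidence intervals from the limma fit (n = 4 mice per group). Filled points have an adjusted p under 0.05. At day 150 the filled points of Ctsd, Ctsz, Ctse, Ctss and Ctsc lie between 0.36 and 0.71, and all points of days 70 and 80 are open.

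Second probe sets gave a further reading for 7 genes, with 12 probe sets beside the main ones. Both other probe sets of Ctsz stood higher in TgCRND8 at day 150 without overlap. The first averaged 7.48 in TgCRND8 and 6.87 in Control, a difference of 0.61 (adjusted p = 0.0027 by limma over all 34945 probe sets). The other averaged 5.43 in TgCRND8 and 4.90 in Control, a difference of 0.53 that did not pass (adjusted p = 0.19 by limma). The second Ctsh probe set averaged 4.47 in TgCRND8 and 4.14 in Control without overlap, a difference of 0.34 (adjusted p = 0.52 by limma).

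The second probe sets of Ctsc and Ctse did not show the difference of the main ones. Those of Ctsc differed by 0.07 and 0.13, with group means between 2.52 and 2.89, under the lower quartile of every array. That of Ctse differed by -0.12, with 3.27 in TgCRND8 and 3.38 in Control at day 150, close to that quartile. Averaged over all its probe sets, Ctsc differed by 0.30 (adjusted p = 0.058 by limma) and Ctse by 0.20 (adjusted p = 1.0 by limma). The 4 further probe sets of Ctsb differed by -0.05 to 0.16, that of Ctsl by -0.12 and that of Ctsf by 0.01, all with overlap. Ctss, Ctsd and Ctsk had 1 probe set each.

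**Figure D3:**
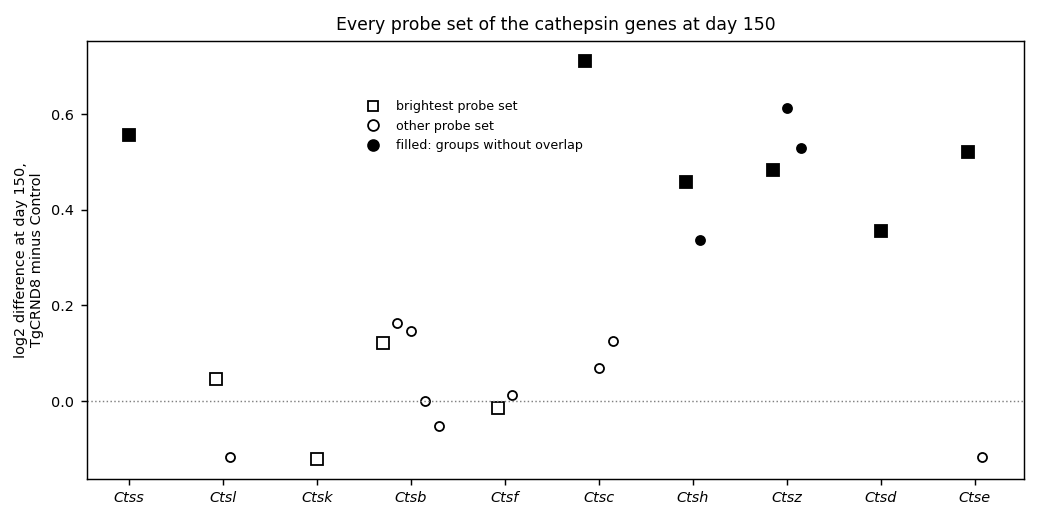
Log2 difference of TgCRND8 minus Control at day 150 for all 22 cathepsin probe sets. Squares are the main probe sets and circles the others, filled where the 4 TgCRND8 and 4 Control arrays do not overlap. All 3 probe sets of Ctsz and both of Ctsh are filled, while the circles of Ctsc and Ctse lie between -0.12 and 0.13.

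At days 70 and 80 none of the 10 cathepsins passed between genotypes by limma (adjusted p = 1.0), where 0% of all genes rose and 0% fell at each age. At an unadjusted p under 0.05 there were 0 cathepsins at both ages, against 3.25% of all genes at day 70 and 3.77% at day 80. Differences ran from -0.14 for Ctsh to 0.10 for Ctse at day 70, with a median of -0.03. They ran from -0.04 for Ctsk to 0.19 for Ctse at day 80, with a median of 0.05. The 95% confidence intervals of the 5 genes that rose at day 150 reached up to 0.32 at day 70 and 0.41 at day 80, so differences of that size at these ages lie within the precision of 4 mice per group. By main probe sets 0 of the 10 genes separated the genotypes at either age. Of all genes 1.1% separated them with TgCRND8 above and 1.26% with TgCRND8 below at day 70, and 0.846% and 0.401% did so at day 80. The fourth probe set of Ctsb did so at day 70, with 6.50 in TgCRND8 and 6.84 in Control, and did not pass (difference -0.34, adjusted p = 1.0 by limma over all probe sets).

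Over the mean of the 3 ages, 0 cathepsins passed by limma, against 0.033% of all genes that rose, and 5 of 10 had an unadjusted p under 0.05, against 3.16% of all genes. With the replicate number as a block 1 passed, Ctss. Ctss came closest with 0.26 (adjusted p = 0.072 by limma), followed by Ctsz with 0.23 and Ctse with 0.27 (0.19 each) and Ctsc with 0.28 (0.36). The difference at day 150 was also set against the mean difference of days 70 and 80 in the same fit. By that test 0 of the 10 passed, against 0.011% of all genes that rose. The changes were 0.64 for Ctsc, 0.50 for Ctsh, 0.45 for Ctss, 0.38 for Ctsz, 0.37 for Ctse and 0.35 for Ctsd, with adjusted p of 0.40 to 0.81 by limma. At an unadjusted p under 0.05 there were these 6 of 10, against 5.75% of all genes. A genotype difference that grew by day 150 was therefore not shown at the threshold used.

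Within TgCRND8 mice, Ctss, Ctsd and Ctse rose with age. Day 150 stood above day 70 by 0.54 for Ctss (adjusted p = 0.0059 by limma), 0.35 for Ctsd (0.030) and 0.55 for Ctse (0.031), and these 3 of 10 compare with 0.0824% of all genes. Ctsc (0.46), Ctsz (0.42) and Ctsh (0.33) did not pass (adjusted p = 0.50, 0.064 and 1.0 by limma). The count was 0 without TgCRND8 replicate 4 of day 70. It was 1, Ctss, without TgCRND8 replicate 1 or 4 of day 150 or replicate 2 of day 70. For 6 of 10 all arrays of day 150 lay above all of day 70, against 1.22% of all genes.

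Against day 80, 0 cathepsins passed at day 150 in TgCRND8, against 0.022% of all genes that rose. Ctss was nearest with 0.47 (adjusted p = 0.054 by limma), and 5 of 10 did not overlap, against 1.1% of all genes. At an unadjusted p under 0.05 there were 7 of 10, against 6.76% of all genes. Without TgCRND8 replicate 3 of day 80, Ctss and Ctsz passed, and with the replicate number as a block 1 passed, Ctss. Between days 80 and 70 in TgCRND8, 0 of the 10 passed by limma, against 0% of all genes, and 0 had an unadjusted p under 0.05, against 5.72% of all genes. Differences ran from -0.08 to 0.07. In Control mice 0 cathepsins passed between any ages, against 0% of genes that rose in each comparison, and 0.022% that fell between days 150 and 70. At an unadjusted p under 0.05 by limma there was 1 cathepsin between days 150 and 70 in Control, Ctsh, against 7.99% of all genes, and there were 0 between days 80 and 70 and between days 150 and 80, against 3.24% and 3.41% of all genes. It was lower at day 150 than at day 70 without overlap (5.40 against 5.67), as were 2.53% of all genes, and did not pass (-0.27, adjusted p = 0.54 by limma). The comparisons of TgCRND8 at day 150 with Control and with younger TgCRND8 mice share the same 4 arrays.

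Beside the 10 genes, Cst7 was the gene of the cathepsin system that passed at day 150. Of 13 other measured cathepsin genes, 0 passed at day 150 by limma (1 at an unadjusted p under 0.05) with a median difference of 0.06, Ctsa among them with 0.24 and Ctsg with 0.06. Most were dim: Ctsj, Ctsm, Ctsq, Ctsr, Cts3, Cts6, Cts7, Cts8 and Ctsll3 averaged 2.49 to 3.01 over the 24 arrays. That is under the lower quartile of every array, so their lack of a difference says little. Cathepsin inhibitors numbered 11, of which 1 rose. This was Cst7, for cystatin F, an inhibitor that acts on cathepsin C, with 4.55 ± 0.30 in TgCRND8 and 2.96 ± 0.067 in Control (SD, n = 4 each), a difference of 1.59 (adjusted p = 5.5e-10 by limma). In Control mice Cst7 thus read below the arrays' lower quartile. The median of the inhibitors was 0.03, and Stfa3, Cst9, Cst12, Ctla2b and Ctla2a averaged 2.65 to 3.11, also under the lower quartile of every array. Serine proteases that cathepsin C activates numbered 8, and 0 passed by limma, also unadjusted (median -0.05, Elane -0.08). All 8 were dim, with means of 2.99 to 3.99 over the 24 arrays, under the median of every array.

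Genes for sorting and activation of lysosomal enzymes numbered 14, and 0 passed by limma, also unadjusted, with a median of 0.05 and 12 above 0, against 50.1% of all genes above 0. They include Gnptab (0.06) and Gnptg (0.14), subunits of the enzyme that makes the mannose phosphate sorting tag, and Lgmn, for the legumain that cleaves cathepsin precursors (0.19). Of 33 other lysosomal hydrolases and cofactors 0 passed (3 unadjusted), with a median of 0.06 and 24 above 0, Hexa (0.15) and Gaa (0.03) among them. Of 21 lysosomal membrane genes 1 rose, Cd68, a phagocyte glycoprotein, by 0.999 (adjusted p = 0.0026 by limma), with 5.45 ± 0.24 in TgCRND8 and 4.45 ± 0.20 in Control (SD, n = 4 each). Their median was 0.04. Laptm5 (0.17) and Ctns (0.15) did not pass but had an unadjusted p under 0.05 by limma, as did 4.38% of all genes. None of the 17 genes of the proton pump that acidifies lysosomes passed, also unadjusted (median -0.00015), Atp6v0a1 (0.05) and Atp6v0a2 (0.12) among them. Nor did the 7 genes of a list of lysosome transcription factors and other regulators, also unadjusted (median 0.06), Tfeb with -0.01 and Tfe3 with 0.11. Of 8 class II antigen presentation genes 0 passed (1 unadjusted, median 0.01), with Cd74, for the invariant chain that cathepsin S trims, at 0.36 (adjusted p = 0.999 by limma) and H2-Aa at 0.02.

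**Figure D4:**
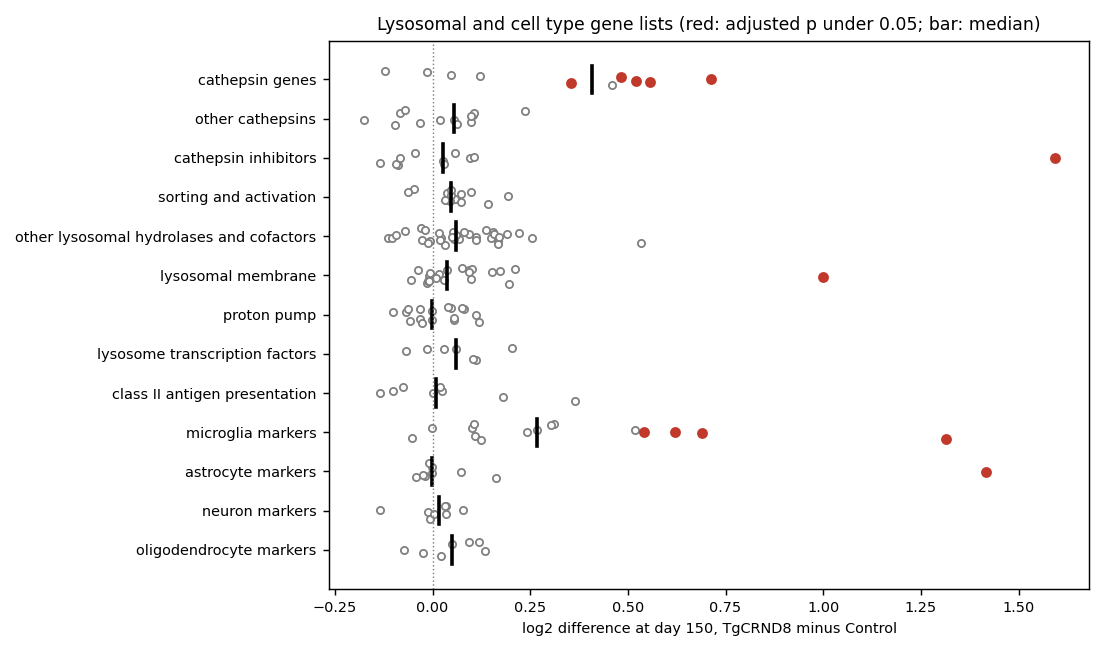
Log2 difference of TgCRND8 minus Control at day 150 for the genes of 13 lists, 1 point per gene with a bar at the list's median. Red points have an adjusted p under 0.05 by limma. The cathepsin median is 0.41, the microglia median 0.27, and the medians of the other 11 lists shown lie between -0.0024 and 0.06.

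Of 15 measured microglia markers 4 rose at day 150 and 11 did not pass. Those that rose were Tyrobp (1.31) and Trem2 (0.62), a signalling adaptor and the lipid receptor it serves, and C1qa (0.54) and C1qc (0.69), chains of the complement protein C1q. Cx3cr1 (0.10), P2ry12 (0.11), Tmem119 (0.11), Fcrls (-0.00034) and P2ry13 (-0.05), markers of resting microglia named after their values were seen, were among those that did not pass (adjusted p at least 0.999 by limma for each). Gpr34 (0.52) and Siglech (0.30), which are markers of resting microglia too, did not pass either, nor did Itgam (0.27) and Csf1r (0.24). These genes were also named after their values were seen. Beside the markers that rose, they had an unadjusted p under 0.05 by limma, as did 4.38% of all genes. The resting markers named here thus did not all lie near 0. The list's median was 0.27, and 13 of 15 were above 0, against 50.1% of all genes. The mean level of the 15 markers was 6.04 to 6.24 in the TgCRND8 arrays and 5.70 to 5.88 in the Control arrays of day 150. It was 5.82 to 5.97 in TgCRND8 and 5.77 to 5.93 in Control at day 70, and 5.80 to 6.05 in TgCRND8 and 5.74 to 5.92 in Control at day 80. The part of microglia in the cathepsin differences was not tested.

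Of 9 astrocyte markers 1 rose, Gfap by 1.42 (median -0.0024). No marker passed among those of neurons (8, median 0.02), oligodendrocytes (7, 0.05), endothelial cells and pericytes (8, 0.09), perivascular macrophages (6, 0.04), neutrophils (8, -0.11), lymphocytes (5, -0.10), meningeal fibroblasts (5, 0.08), choroid plexus (5, -0.09) or red cells (3, -0.05). At an unadjusted p under 0.05 by limma there was 1 in all of these lists, against 4.38% of all genes. It was the red cell marker Hba-a1 (-0.18), named after its value was seen. Hba-a1 averaged 2.78 over the 24 arrays, under the lower quartile of every array. The neutrophil markers averaged 3.67 to 3.85 in TgCRND8 and 3.73 to 3.96 in Control at day 150.

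Genes whose 6 group means, each centred on its own mean, lay closest to those of a cathepsin were sought among all other genes by the root mean square difference. For Ctss these were Cd14 (0.026), Irf8 (0.044) and Plek (0.052), where the median gene stood at 0.22. For Ctsz they were C1qa (0.033), Plek (0.035) and Cd14 (0.044), against a median of 0.19. For Ctsc they were C1qc (0.055), C1qb (0.056) and Cyba (0.066), and for Ctse Cd14 (0.048), Dctn5 (0.064) and Irf8 (0.067). For Ctsd they were Anxa3 (0.026), Fendrr (0.029) and Tmem176a (0.038), against a median of 0.14. Of these 11 genes C1qa, C1qc and Cyba passed at day 150, and Cd14 differed by 0.49 (adjusted p = 0.10 by limma). The likeness rests on 6 means from shared arrays and is a description.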

How the data were processed

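RNA of 24 forebrains was measured on Affymetrix mouse arrays, 1 array per mouse, after biotin labelling by in vitro transcription, per the labels' protocols. The values were log2 signals deposited by the authors in 1 table. The normalization behind them is not given in the sources used, and array medians of 4.28 to 4.38 do not show which was used. Of 45101 probe sets in it, 64 served as array controls. No column was left unmapped. Probe sets were named from the platform annotation supplied with the files, and those with several or no symbols were left out.

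All arrays entered 1 limma fit (lmFit, eBayes) that had a mean for each of the 6 groups and left 18 residual degrees of freedom beside 7.47 from the prior, with Benjamini-Hochberg adjustment over 18193 genes for each comparison. The number of mice limits precision, with a median standard error of 0.098 log2 for a genotype difference at 1 age. The labels name the arrays as biological replicates. Same-numbered TgCRND8 and Control arrays deviated together at day 150 (correlations 0.137 to 0.256 for 4 pairs), but over all ages only 9 of 12 pairs exceeded 0.1 (-0.321 to 0.479). The block was therefore an alternative.

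The 10 cathepsins and all other gene lists were chosen with earlier results of these data known. Named genes were all 10 cathepsins, the members of each other list that passed at day 150 or over the mean of ages (the first 2 where none passed), and the 3 genes most like each of Ctss, Ctsd, Ctsz, Ctsc and Ctse. Ctsh among the age results, Lgmn, the neuron markers Snap25 and Camk2a, Gusb, the resting microglia markers and Ctsb probe sets were picked out after their values were seen. So were Gpr34, Siglech, Itgam, Csf1r, Laptm5, Ctns and the genes named for a low level. Alternatives changed the scaling (quantile normalization, or centring on medians), the features (without the dimmest 40% of genes, each gene's probe sets averaged, or every probe set tested) and the fit (trend and robust settings, array weights, Xist level, replicate block, no arrays of other groups). A looser adjusted p of 0.10 and fits without 1 array were also tried. The fit was also run on simulated data with independent noise, and the outcome is not reported here. The fits used limma 3.58.1 in R 4.3.3, and figures were drawn with matplotlib 3.10.9 under Python 3.11.15.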

Additional observations from a re-analysis of the deposited data

Results flagged for a closer look

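Among 60 combinations of a cathepsin gene and a group of 4 arrays, 2 held an array whose gap to its nearest neighbour was large against the range of the group by Dixon's criterion, and chance alone gives about 1 in 20. Ctsf in TgCRND8 of day 70 had replicate 1 at 7.57, above the next array at 7.36. Ctss in Control of day 70 had replicate 1 at 8.61, below the next array at 8.91. With either array left out, 0 cathepsins passed between genotypes at day 70 by limma, as with all arrays (0 also at an unadjusted p under 0.05).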

How the results depend on the processing

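At day 150 between 4 and 6 cathepsins passed under every alternative that kept all arrays, and 1 to 5 when an array was left out. Over all genes, 35 passed with array weights against 22 in the fit reported, and 12 to 20 with an array left out. Over the mean of ages the count was 1 (Ctss), not 0, with quantile normalization, without the dimmest 40% of genes, with trend and robust settings, with array weights, with the replicate block and at an adjusted p under 0.10, and 0 to 1 with an array left out. Between days 150 and 80 in TgCRND8 it was 1 (Ctss) with quantile normalization, trend and robust settings and the replicate block, 3 at an adjusted p under 0.10, and 0 to 2 with an array left out. Between days 150 and 70 in TgCRND8 it was 0 to 3 with an array left out. The replicate block changed no other count by over 1.5 times. The cause of these changes was not tested beyond the loss of an array.

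Signs turned only for differences near 0 that did not pass. With median centring, Ctsc at day 70 was -0.0136 and Ctsf at day 150 was 0.00874. With the mean of all probe sets, Ctsf was 0.0110 at day 70 and 0.0419 at day 80, Ctsh -0.0781 at day 80 and Ctsl -0.0350 at day 150. With quantile normalization, Ctsf was 0.0129 and Ctsl 0.0235 at day 80. With an array left out, differences at day 70 ranged from -0.0853 to 0.0682 for Ctsc, -0.0752 to 0.0017 for Ctsd and -0.103 to 0.0299 for Ctsk. At day 80 they ranged from -0.0562 to 0.0265 for Ctsf, -0.0351 to 0.115 for Ctsh, -0.144 to 0.0291 for Ctsk and -0.0606 to 0.0289 for Ctsl, and at day 150 from -0.0998 to 0.0334 for Ctsf. Fits with only the arrays compared do not exist for the mean of ages and for the change by day 150, which use all arrays. Ctse was among the dimmest 40% of genes and was left out with them.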

Other observations

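Among the lysosomal genes beside the cathepsins, some stood higher in TgCRND8 at day 150 without passing, and they were picked out after their values were seen. Gusb, for the lysosomal beta-glucuronidase, differed by 0.53 (SE 0.13, adjusted p = 0.20 by limma, n = 4 per group). Naglu differed by 0.19 (SE 0.085) and Npc2 by 0.17 (SE 0.075). These genes had an unadjusted p under 0.05 by limma, as did 4.38% of all genes. Glb1, for the lysosomal beta-galactosidase, differed by 0.25 (SE 0.13) and Grn, for progranulin, by 0.22 (SE 0.15). Lipa, for the lysosomal acid lipase, differed by 0.17 (SE 0.084). Glb1, Grn and Lipa did not reach an unadjusted p under 0.05. Adjusted p was 0.999 by limma for each gene but Gusb. Psap, for the saposin precursor, differed by 0.02.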
